A study of Mus musculus with 10 samples.

Results

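The cytosolic ribosomal protein genes are the genes for the protein subunits of the ribosome that translates nuclear messages. They were chosen by name and biotype: a record was taken if it was annotated as protein coding and its mouse symbol began with Rpl or Rps followed by a number, by p and a number or by a, with the ribosomal S6 kinases (Rps6k) and records named as pseudogenes (-ps) left out. This gave 87 of the 54347 gene records in the count table. Of the 87, 46 were genes of large subunit proteins, 31 were genes of small subunit proteins and 8 were paralogues or retrogenes of these (Rpl3l, Rpl7l1, Rpl10l, Rpl22l1, Rpl36al, Rpl39l, Rps27l and Rps27rt). The remaining 2 were Rps23rg1, a retrogene derived from Rps23, and Rps19bp1, which encodes a binding partner of Rps19 and no ribosomal protein. A minimum count kept 85 of the 87 for testing. The Rpl10l record had 0 counts in all 10 mice and the Rps23rg1 record had 0 to 7 counts per mouse, so neither was tested.

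Poly A RNA was sequenced from whole interscapular brown adipose tissue (iBAT), the depot that burns fat to produce heat, of 10 mice on the C57BL/6N background aged 12 weeks. All 10 had been kept singly at 4 °C for 24 h before dissection, so no mouse at room temperature enters these comparisons. The 5 ΔGm15551 mice (replicates 1, 2, 4, 5 and 7) carried a CRISPR/Cas9 deletion that removes exon 1 of the lncRNA gene Gm15551, were described by the study as homozygous and descended from a line backcrossed to wild type for 2 generations, and the 5 wild type mice (replicates 2, 3, 5, 6 and 7) carried no such deletion. The comparison asks whether loss of the lncRNA changes RNA levels in cold-activated iBAT. Library totals ranged from 9680976 to 15771170 counts. Gm15551 was counted 0 times in each ΔGm15551 mouse and 1, 2, 6, 7 and 0 times in wild type replicates 2, 3, 5, 6 and 7, so wild type replicate 7 could not be distinguished from the deletion by this gene, since a count of 0 allows up to 3. All 6 brown adipocyte markers, Ucp1 among them, were counted in every mouse and took 1.01% to 1.49% of the counts.

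A ribosome is assembled from ribosomal RNA and one copy of nearly every ribosomal protein, so cells make the proteins of both subunits in matched amounts. Their messages are short and abundant and are known for a terminal oligopyrimidine (TOP) start, a C followed by a run of C and T, through which the mTOR kinase and the binding protein LARP1 adjust their translation when growth conditions change. The genome also holds many processed copies of these messages, most of them pseudogenes and a few of them intact retrogenes.

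At the annotated start sites a minority of the promoters had such a start. RefSeq promoters of assembly GRCm38.p6, from 250 bases before to 50 after each start, were available for 67 of the 87 genes. At the exact annotated start, 14 of the 67 (20.9%) had a C followed by at least 4 further C or T, against 3.01% of the 27025 genes in the promoter table. The windows below run from 40 bases before the start, and the capitals mark the pyrimidine run from the start base. Rpl35 and Rps6 had runs of 11 and 9 bases, Rpl38 had 8, Rps27 had 7 and Rplp2 had 5, and the muscle paralogue Rpl3l, shown for contrast, had none.
Rpl35 (chr2:39005112-39005171, minus strand): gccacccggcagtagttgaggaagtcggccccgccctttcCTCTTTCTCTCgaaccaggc
Rps6 (chr4:86857348-86857407, minus strand): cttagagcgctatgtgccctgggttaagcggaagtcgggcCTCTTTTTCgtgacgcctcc
Rpl38 (chr11:114668540-114668599, plus strand): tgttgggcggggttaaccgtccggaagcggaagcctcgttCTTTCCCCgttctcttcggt
Rps27 (chr3:90213629-90213688, minus strand): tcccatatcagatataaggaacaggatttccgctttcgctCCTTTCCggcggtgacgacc
Rplp2 (chr7:141447611-141447670, plus strand): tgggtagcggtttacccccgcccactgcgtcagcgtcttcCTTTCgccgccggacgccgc
Rpl3l (chr17:24727786-24727845, plus strand): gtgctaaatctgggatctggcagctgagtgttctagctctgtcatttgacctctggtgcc

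Short motifs were searched on both strands of these 300-base windows. CCGGAAG, the core bound by ETS-family factors, was present in 26 of 67 genes (38.8%) against 9.93% of all genes in the table. GGGCGG, the core of a GC box, was present in 61.2% against 38.2%, TCTTTC in 40.3% against 24.5% and AAGATGG in 14.9% against 7.28%. The TATA motif TATAAA was less frequent, at 10.4% against 15.7%. TCTTTC can lie inside a pyrimidine run, so these counts overlap. A match describes letters in the window and no binding was measured.

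The family took 0.860% to 1.38% of the counts of a library, and this share varied more between mice than between genotypes. The 87 genes took 1.31%, 0.905%, 0.934%, 1.31% and 0.890% of the counts in ΔGm15551 replicates 1, 2, 4, 5 and 7. In wild type replicates 2, 3, 5, 6 and 7 they took 1.23%, 0.860%, 1.02%, 0.924% and 1.38%. Both groups therefore held low and high mice, and their ranges overlapped almost wholly. The means were 1.07% ± 0.221 in the ΔGm15551 mice and 1.08% ± 0.218 in the wild type mice (SD, 5 mice each). Since the whole depot was sequenced, fewer cells of a type and less RNA per cell cannot be told apart in such shares.

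Levels of different genes were compared per length, as counts per kilobase of the principal transcript, scaled to a sum of 1000000 in each mouse (ppm). On this scale the 77 genes of both subunit classes had a median of 239.8 ppm, the 78 mitochondrial ribosomal protein genes one of 65.7 and all tested genes one of 7.68. The large and small subunit genes had similar medians, 232.7 and 239.8. Over all mice the highest level was that of Rps2, a small subunit protein near the message entry channel, at 870.0 ± 144 in ΔGm15551 and 849.8 ± 140 in wild type (SD, 5 mice each). It was followed by Rpl41, the smallest ribosomal protein, at 894.2 ± 295 and 805.6 ± 216, and by Rplp1, an acidic stalk protein that recruits elongation factors, at 719.2 ± 207 and 741.1 ± 164. Rpl23a, a protein at the exit of the peptide tunnel, and Rpl19, which forms a bridge between the subunits, completed the highest 5 at means of 580.4 and 525.5 over all mice. Neighbours among these 5 did not differ beyond their spread over mice.

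At the other end of the order, the 5 lowest tested levels belonged to Rpl39l, Rpl3l, Rpl12, Rpl5 and Rps15a. Rpl39l and Rpl3l are paralogues known for high expression in testis and in striated muscle, and they reached means of 2.38 and 2.71 ppm. Rpl12, a protein at the base of the stalk, and Rpl5, which carries the 5S RNA into the large subunit, are constituents of every ribosome, yet stood at only 9.61 and 11.2. For Rps15a the annotated principal transcript is 5179 bases long, the longest of the family, and its level of 19.4 rests on that length. With all exons merged as the length, 4 of the highest 5 stayed among them and Rpl36 replaced Rpl41, while Rplp1 then led at 943.4 ppm, ahead of Rpl36 at 653.7 and Rps2 at 606.5. With that length Rpl22l1, at 10.97 ppm, replaced Rps15a among the lowest 5, Rpl12 and Rpl5 stood at 4.28 and 7.53, and Rpl3l, at 2.91, lay below Rpl39l, at 2.98.

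**Figure D1:**
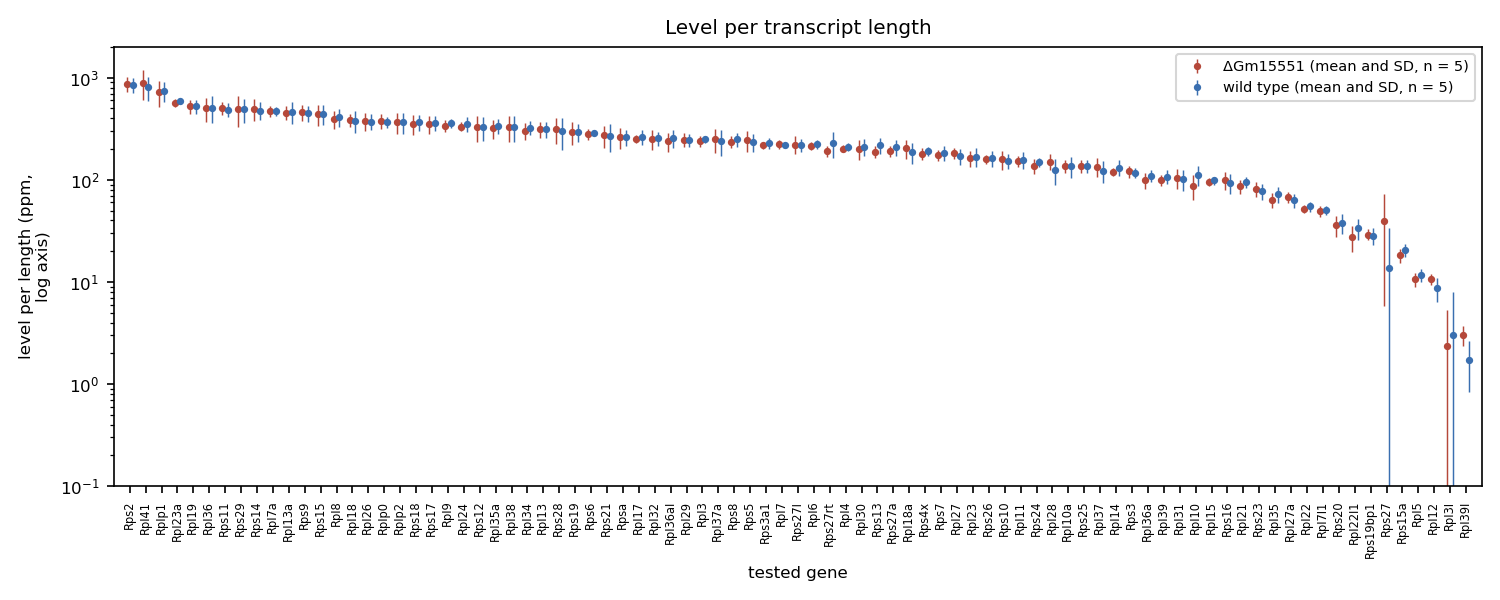
Level per length of the 85 tested genes, in ppm on a log axis, ordered by the mean over all 10 mice, with red for ΔGm15551 and blue for wild type (mean and SD, n = 5 each). The points of both groups overlap for nearly all genes, from 859.9 for Rps2 downwards, and the low end is formed by Rps15a, Rpl5, Rpl12, Rpl3l and Rpl39l. Where the SD exceeds the mean, the bar runs to the lower edge.

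The low levels of Rpl12 and Rpl5 stood beside high counts on records that share part of their sequence. Of the 87 genes, 82 had a best matching record in the table by shared stretches of 31 bases, and for 9 of them that record had more counts than the gene itself. For Rpl12 this record was Gm10275, annotated as a transcribed processed pseudogene, which holds 49.8% of the 31-base stretches of the Rpl12 transcript. Rpl12 had 101.2 counts on average and Gm10275 had 909.2. Rpl5 had 191.1 counts and Gm15500, of the same annotation class and holding 49.0% of its stretches, had 1538. For 51 of the 82 genes the best matching record held under 1% of the count of the gene. Only that record was examined for each gene, while the tested genes shared stretches with a median of 16 gene records. Salmon divides a read that fits several transcripts by an estimate, so levels of the single records are uncertain wherever such a copy is counted.

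Rps27 was the clearest case. It encodes a zinc finger protein of the small subunit, and its retrogene Rps27rt on chromosome 9 holds 98.7% of its stretches. The coding sequences of both records, 255 bases each, were identical base for base. The sequence is shown because a read from within it cannot be placed at one record rather than the other. It lies in the Rps27 gene at chr3:90212522-90213651 and in Rps27rt at chr9:114982366-114982739, both on the minus strand of GRCm38 in the GENCODE M21 annotation.
Rps27 and Rps27rt coding sequence: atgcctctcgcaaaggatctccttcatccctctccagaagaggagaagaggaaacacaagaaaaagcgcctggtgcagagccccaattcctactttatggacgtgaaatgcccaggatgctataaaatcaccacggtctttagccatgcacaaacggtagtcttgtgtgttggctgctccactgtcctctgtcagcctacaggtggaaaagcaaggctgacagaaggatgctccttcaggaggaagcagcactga

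Rps27 had 160, 13, 173, 226 and 16 counts in ΔGm15551 replicates 1, 2, 4, 5 and 7, and 10, 10, 13, 169 and 18 counts in wild type replicates 2, 3, 5, 6 and 7. Its counts thus fell at a high and a low level, the high one in 3 ΔGm15551 mice and 1 wild type mouse. Rps27rt had 792, 652, 505, 515 and 708 counts in ΔGm15551 and 765, 566, 650, 590 and 796 in wild type, and its 3 lowest values in CPM, counts scaled by the TMM method to a common library total, were in 3 of the 4 mice with high Rps27. The fit gave a log2 fold change of 1.45 (SE 1.03) for Rps27 and -0.27 (SE 0.198) for Rps27rt, neither past the threshold. Without wild type replicate 6, the only wild type mouse with high Rps27, the value for Rps27 was 2.97 and fell under an unadjusted p of 0.05. In CPM, Rps27 ranged 20.2-fold between the lowest and the highest mouse, Rps27rt 2.18-fold and the sum of both 1.77-fold. Rps27 made up 1.29% to 30.5% of this sum, so the sum mostly follows Rps27rt. The sum was 55.5 ± 8.69 in the ΔGm15551 mice and 59.7 ± 16.0 CPM in the wild type mice (SD of 5 mice each; exact permutation test over 252 assignments, two-sided, p = 0.730). The part of read division in the high and low values of Rps27 was not tested.

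Rpl10, which joins the large subunit late and shapes its catalytic centre, had a similar partner. Rpl10-ps3 is annotated as protein coding, was left out by its name, and has the same coding sequence of 645 bases. Rpl10 had 432, 536, 646, 805 and 622 counts in ΔGm15551 and 704, 848, 854, 667 and 484 in wild type, while Rpl10-ps3 had 1124 to 2107. Rpl10 alone was lower in ΔGm15551 by a log2 fold change of -0.36 (SE 0.180, edgeR quasi-likelihood unadjusted p = 0.068, adjusted p = 0.9997), with overlapping groups. This value ranged from -0.50 to -0.26 when each mouse was left out. It fell under an unadjusted p of 0.05 without ΔGm15551 replicate 5, wild type replicate 6 or wild type replicate 7. The same held with no filter, and at -0.59 without wild type replicates 5, 6 and 7 together. The summed CPM of both records was 171.5 ± 18.9 and 173.5 ± 18.7 (exact permutation test, two-sided, p = 0.841).

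The same sums were formed for all 8 tested genes with a better counted copy, which are Rpl12, Rps27, Rpl5, Rpl10, Rpl27a, Rps23, Rpl11 and Rpl35. Their log2 differences between the genotypes ranged from -0.10 for Rpl35 to 0.06 for Rpl27a, and every adjusted p over the 8 exact tests was 1. In each of these sums the copy had more counts than the gene, so a sum says little of the gene itself. Rpl12, the gene with the third smallest p of the family (log2 fold change 0.29, SE 0.200, edgeR unadjusted p = 0.174, adjusted p = 0.9997), made up only 7.41% to 12.5% of its sum with Gm10275.

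**Figure D2:**
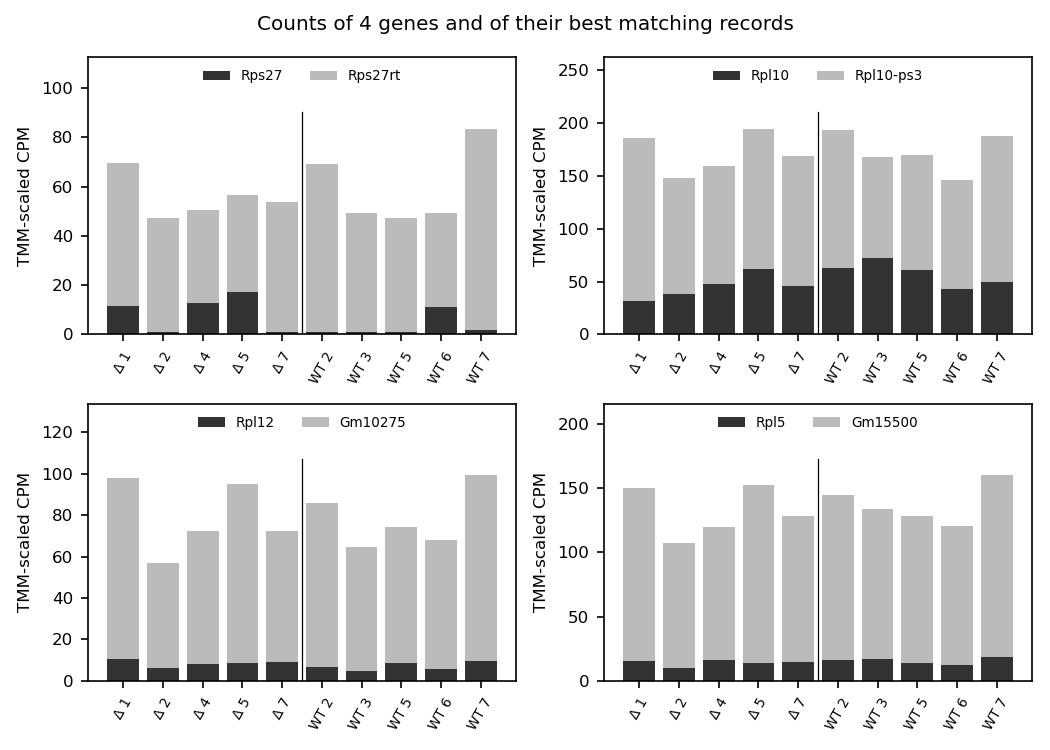
TMM-scaled CPM in each mouse for Rps27, Rpl10, Rpl12 and Rpl5 (dark, at the base) with their best matching records (light) stacked on top, and with ΔGm15551 left and wild type right of the line. Rps27 is visible in 4 mice (Δ 1, Δ 4, Δ 5 and WT 6) and nearly absent in the other 6, while the summed height stays between 47.1 and 83.4 CPM.

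Between the genotypes, no gene of the family passed the test. Of the 85 tested, 0 passed an adjusted p of 0.05 (edgeR quasi-likelihood test, Benjamini-Hochberg over all 13732 genes), as did 0 of all genes (0.0%), and the DESeq2 Wald test and limma-voom gave 0 as well. At an unadjusted p under 0.05 the family held 1 gene (1.18%), against 1.59% of all genes. That gene was higher in ΔGm15551, a direction called for 0.961% of all genes, and none was lower, against 0.634%. In 0 of the 85 did the mice of one genotype all lie above those of the other, which held for 0.32% of all genes.

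The estimates were also close to 0. The median log2 fold change was -0.03 over the 85 genes and -0.00092 over all genes tested. Within 0.25 of 0 lay 77 of the 85, as did 11819 of all 13732 genes tested. A positive estimate was found for 30 of 85 (35.3%) against 49.7% of all genes, and since the genes moved together between mice these signs are not independent of each other. This count went from 8 without ΔGm15551 replicate 5 to 61 without wild type replicate 7. For 62 of the 85 (72.9%) the 95% interval of the difference lay wholly within 0.5 log2 units of 0, against 55.1% of all genes. The large subunit genes had a median of -0.04 and the small subunit genes of -0.02. Genes with a TOP start at the exact annotated start base had a median of -0.05 (14 genes) and those without one at that base of -0.02 (51 genes). This split rests on the annotated base alone, so the 51 genes are not shown to lack a TOP start.

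**Figure D3:**
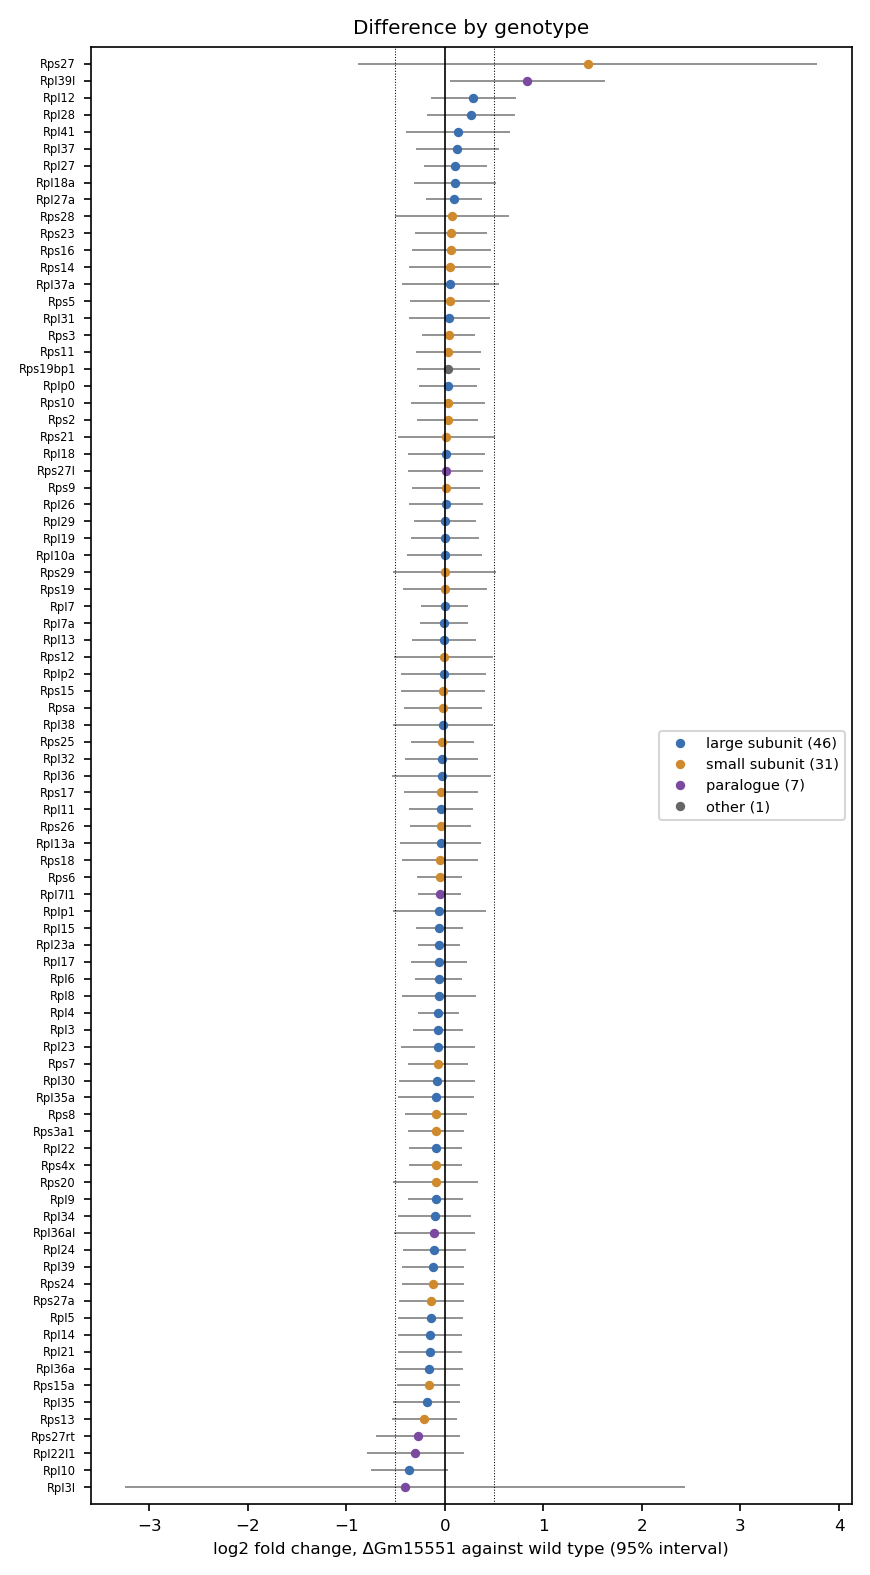
Log2 fold change of each tested gene, ΔGm15551 against wild type, with its 95% interval from the edgeR fit, coloured by class, and dotted lines at 0.5 on either side of 0. Nearly all intervals cross 0 and 62 of 85 stay between the dotted lines, those of Rpl3l and Rps27 are the widest, and Rpl39l alone is clear of 0.

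Rpl39l, a paralogue of the tunnel protein Rpl39, was the gene under an unadjusted p of 0.05. It had 23, 26, 21, 13 and 25 counts in ΔGm15551 replicates 1, 2, 4, 5 and 7 and 14, 16, 5, 7 and 11 counts in wild type replicates 2, 3, 5, 6 and 7. The groups overlapped, since scaled by depth ΔGm15551 replicate 5, at 0.995 CPM, lay below wild type replicates 2, 3 and 7, at 1.25, 1.37 and 1.13 CPM. The fit gave a log2 fold change of 0.84 (SE 0.365, 95% interval 0.05 to 1.62, unadjusted p = 0.039, adjusted p = 0.9997). Per length Rpl39l reached 3.13% ± 0.944 of Rpl39 in ΔGm15551 and 1.54% ± 0.647 in wild type (SD, 5 mice each). With 5 to 26 counts per mouse, the value rests on few reads. It fell to 0.28 without wild type replicates 5, 6 and 7, whose mouse numbers in the labels belong to a higher series, and missed an unadjusted p of 0.05 in 9 of 21 alternatives.

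The members with the best known single roles stayed near 0. The stalk proteins Rplp0, Rplp1 and Rplp2 had log2 fold changes of 0.03 (SE 0.136), -0.05 (SE 0.218) and -0.01 (SE 0.200). Rplp0, often used as a reference gene, had 368.2, 279.1, 306.9, 411.7 and 294.8 CPM in the ΔGm15551 mice and 356.6, 274.2, 336.7, 296.2 and 358.4 CPM in the wild type mice. Its highest mouse, ΔGm15551 replicate 5, thus stood 1.5-fold above its lowest, wild type replicate 3.

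Rps6, the substrate of the S6 kinases, had 154.7, 137.3, 158.2, 186.1 and 158.3 CPM in the ΔGm15551 mice and 157.2, 163.5, 162.2, 157.3 and 183.0 CPM in the wild type mice, a log2 fold change of -0.05 (95% interval -0.28 to 0.18). These ranges overlapped and differed less between mice than those of Rplp0. Rpl5 and Rpl11, which with the 5S RNA can bind Mdm2 and so stabilise p53, had log2 fold changes of -0.14 (95% interval -0.47 to 0.19) and -0.04 (95% interval -0.36 to 0.29). Rps19, the gene most often mutated in Diamond-Blackfan anaemia, had a log2 fold change of -0.0011 (95% interval -0.43 to 0.42). Rpsa, also known as a laminin receptor, had one of -0.02 (95% interval -0.41 to 0.38), and Rps27a, made as a fusion with ubiquitin, one of -0.14 (95% interval -0.47 to 0.20). None of the intervals of these 6 genes reached 0.5 on either side.

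What the 85 genes shared was a shift between individual mice, in both genotypes. The deviation of each gene in each mouse was taken as its log2 CPM minus its own mean over the 10 mice. In ΔGm15551 replicates 1 and 5, 81 and 75 of the 85 genes lay above their own mean, and in replicates 2, 4 and 7 only 2, 6 and 10 did. In wild type replicates 2 and 7, 79 and 81 lay above it, and in replicates 3, 5 and 6 only 11, 25 and 3. Each genotype thus held 2 mice in which nearly the whole family was high and 3 in which most of it was low.

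The median deviation was 0.32, -0.24, -0.18, 0.22 and -0.14 in ΔGm15551 replicates 1, 2, 4, 5 and 7. It was 0.14, -0.23, -0.04, -0.18 and 0.42 in wild type replicates 2, 3, 5, 6 and 7. The group means were -0.0039 ± 0.255 and 0.02 ± 0.261 (SD, 5 mice each), so the genotypes differed by far less than the mice within them. Over all 13732 genes these medians lay between 0.0021 and 0.019 in every mouse. Both subunit classes moved alike, from -0.23 to 0.41 for the large subunit genes and from -0.27 to 0.42 for the small subunit genes.

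**Figure D4:**
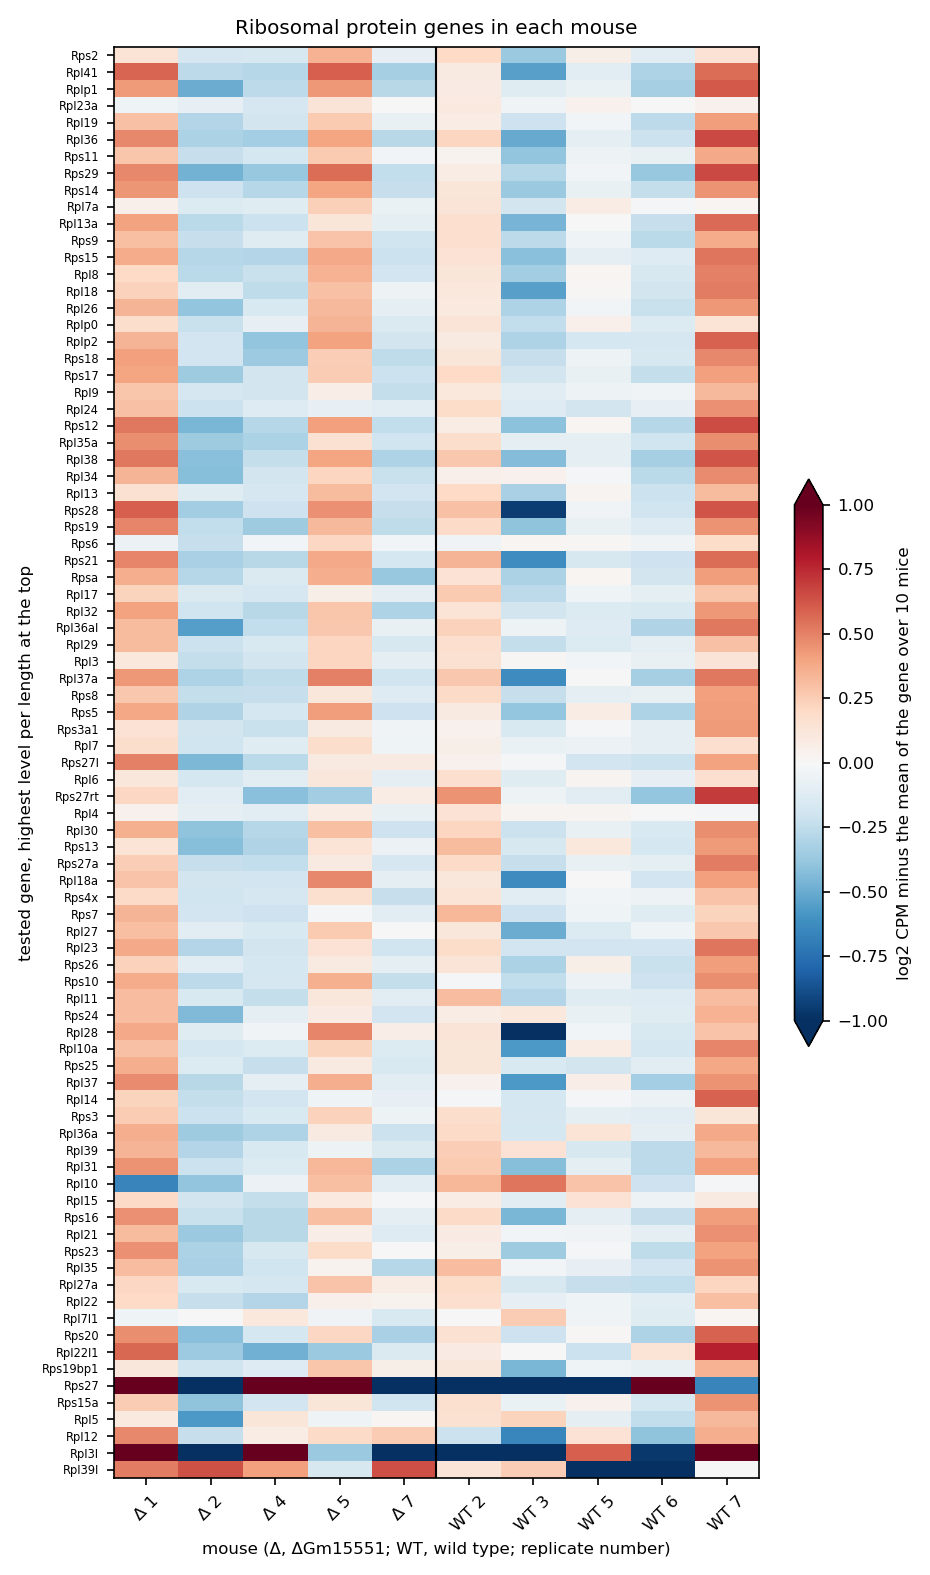
Deviation of each tested gene (rows, highest level per length at the top) in each mouse (columns), as log2 CPM minus the mean of the gene over 10 mice, with red above and blue below it. Columns Δ 1, Δ 5, WT 2 and WT 7 are red over most of the rows, the other 6 are mostly blue, and the rows of Rps27, Rpl3l, Rpl39l and Rpl10 depart from this pattern.

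Of the 85 genes, 71 (83.5%) lay on the side of the family median in at least 9 of the 10 mice, against 10.2% of the other genes tested and 44.5% (161 of 362) of the other protein-coding genes with transcripts under 799 bases, the median length of the tested family. The exceptions included Rpl39l, in 4 mice, Rpl7l1, in 5, and Rpl10, Rpl12, Rpl5, Rpl23a, Rps6, Rps27 and Rpl3l, in 6 each. Rpl7l1, a nucleolar paralogue of Rpl7, was steady rather than divergent, with a 1.33-fold range over the 10 mice. Rpl4 and Rpl23a were steadier still, with ranges of 1.19-fold and 1.23-fold. The largest spread was that of Rpl3l, at an SD of 1.92 log2 units over 10 mice, followed by Rps27 at 1.80 and Rpl39l at 0.69. The median coefficient of variation within genotypes was 19.5% over the 77 subunit genes and 15.3% over other genes in the same range of CPM.

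Transcript length moved with this shift. Split at the median transcript length of the tested family, 799 bases, the 42 shorter genes had median deviations from -0.30 to 0.46 between mice and the 43 others from -0.22 to 0.35. The 362 other protein-coding genes with transcripts under 799 bases had medians of 0.28, -0.19, -0.14, 0.23 and -0.06 in ΔGm15551 replicates 1, 2, 4, 5 and 7. In wild type replicates 2, 3, 5, 6 and 7 they had 0.05, -0.22, -0.08, -0.13 and 0.31. The sign in every mouse was that of the ribosomal protein genes. The part of transcript length in the shift was not tested.

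Fau, which encodes Rps30 as a fusion and is named outside the Rpl and Rps scheme, was highest in the 4 mice in which the family was high. Fau had 134.9 to 189.1 CPM in them and 90.9 to 116.7 in the other 6. Rack1, a scaffold on the small subunit, had 174.4 to 210.4 and 140.5 to 166.4. The medians of the mitochondrial ribosomal protein, translation factor, biogenesis and growth signalling lists shifted less between mice. Mitochondrial ribosomal protein genes, the nearest family by function, had median deviations from -0.10 to 0.14. The 34 genes of translation factors and TOP messages, Fau and Rack1 among them, had medians from -0.19 to 0.12. The 34 genes of ribosome biogenesis, whose products process ribosomal RNA in the nucleolus, stayed between -0.04 and 0.05. The 20 growth signalling genes had medians from -0.16 to 0.13, with the sign opposite to that of the family in every mouse. The smallest of these was -0.0074, for ΔGm15551 replicate 5. The cause of this opposite sign was not tested.

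**Figure D5:**
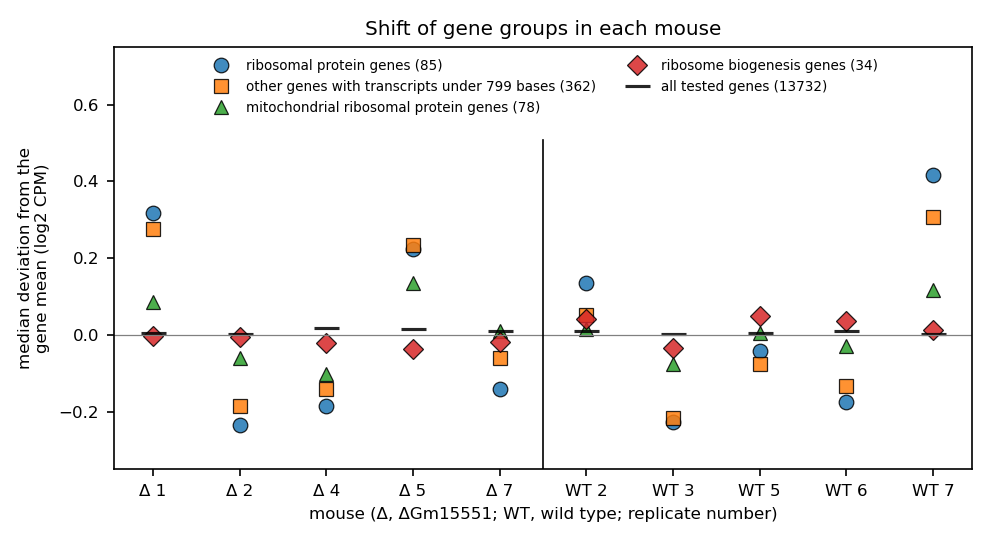
Median deviation in log2 CPM of 5 gene groups in each mouse, ΔGm15551 left and wild type right of the line. The ribosomal protein genes (circles) and other genes with short transcripts (squares) lie on the same side of 0 in all 10 mice, from -0.24 to 0.42 for the former, while biogenesis genes and all genes stay near 0.

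The mitochondrially encoded genes took 28.4% and 27.9% of counts in the mice with the largest shift (ΔGm15551 replicate 1, wild type replicate 7) and 19.8% to 26.1% in the others. The lowest share, 19.8%, was in ΔGm15551 replicate 5, and wild type replicate 2 had 22.1%, with the family high in both. In ΔGm15551 replicate 7, where the family was low, it was 26.1%. This share is part of the total behind every share of counts given. Its part in the shift was not tested. Markers of other cells also differed between these mice. The summed share of the endothelial markers Pecam1, Cdh5 and Kdr was 0.116%, 0.0677%, 0.0801%, 0.101% and 0.0716% of counts in ΔGm15551 replicates 1, 2, 4, 5 and 7, and 0.100%, 0.0732%, 0.0695%, 0.0606% and 0.106% in wild type replicates 2, 3, 5, 6 and 7. All 3 markers were counted in every mouse, and the 4 mice with the highest share were those in which the family was high. Their part in the shift was not tested. The 10 skeletal muscle markers took 0.000137% to 0.198% of counts in ΔGm15551 and 0.000152% to 0.301% in wild type, and 3 or 4 of them were at 0 in ΔGm15551 replicates 2 and 7 and wild type replicates 3 and 6. The 5 red blood cell markers took 0.178%, 0.149% and 0.256% in ΔGm15551 replicates 1 and 5 and wild type replicate 7, where the family was high, but 0.0646%, their lowest share, in wild type replicate 2, where it was high as well. The brown adipocyte markers took 1.02% and 1.01% in the mice with the largest shift (ΔGm15551 replicate 1, wild type replicate 7) and 1.23% to 1.49% in the others. Among these others, ΔGm15551 replicate 5 and wild type replicate 2, where the family was high as well, each had 1.39%. The part of these cells in the shift was not tested. The family was low in the 4 mice with muscle markers at 0, and also in ΔGm15551 replicate 4, which had the second highest muscle share. With a muscle score as a covariate in the fit, 75 of the 85 intervals for genotype lay within 0.5 log2 units of 0, against 62 without it.

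Rpl3l, the striated muscle paralogue of Rpl3, ran with these muscle markers. It had 51, 2, 79, 10 and 1 counts in ΔGm15551 replicates 1, 2, 4, 5 and 7 and 4, 5, 23, 7 and 114 in wild type replicates 2, 3, 5, 6 and 7. The 4 mice with the most Rpl3l (ΔGm15551 replicates 1 and 4 and wild type replicates 5 and 7) were the 4 with the highest muscle shares. Its log2 fold change of -0.40 had an SE of 1.26, with a 95% interval from -3.24 to 2.43. Rpl3l shares no 31-base stretch with another record, and it reached at most 4.90% of the level of Rpl3.

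The other paralogues were set against their partners per length. Rpl36al, a retrogene of Rpl36a whose coding sequence matches it at 282 of 321 bases, was counted above its partner in every mouse, at 241% ± 24.8 of Rpl36a in ΔGm15551 and 232% ± 30.1 in wild type (SD, 5 mice each). Rpl22l1, the alternative form of the RNA-binding protein Rpl22, stood at 52.7% ± 11.9 and 61.3% ± 11.4, and Rpl7l1 at 22.4% ± 3.48 and 23.0% ± 2.97 of Rpl7. These ratios overlapped between the genotypes.

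Rpl22l1 had 16.0, 8.29, 7.65, 8.26 and 9.67 CPM in the ΔGm15551 mice and 11.3, 10.8, 9.21, 11.8 and 18.4 CPM in the wild type mice, with replicate 1 high in the former and replicate 7 high in the latter. Its log2 fold change was -0.30 (95% interval -0.79 to 0.20). Rps27l, a p53-responsive paralogue whose coding sequence matches Rps27 at 194 of 255 bases, had 72.7 ± 18.9 CPM and 72.1 ± 13.2 CPM (SD, 5 mice each). It shared no 31-base stretch with Rps27, so its counts are not affected by that pair. Rps4l, a record annotated as a transcribed processed pseudogene, stood at 36.5% ± 3.01 of Rps4x in ΔGm15551 and 31.6% ± 3.34 in wild type, and Rps3a2 had 0 to 8 counts.

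Among genes that work with the ribosomal proteins, no adjusted p was under 0.05 either. Of the 34 translation factor and TOP genes, 0 were under an unadjusted p of 0.05, and their median log2 fold change was -0.06. Fau had a log2 fold change of -0.07 (SE 0.200). Rack1 had one of 0.03 (SE 0.132). Of the 78 mitochondrial ribosomal protein genes 0 were under that p, with a median of -0.0046, and of the 20 growth signalling genes, Mtor, Larp1 and Myc among them, 0 were, with a median of -0.00032.

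Of the 34 biogenesis genes 1 was under an unadjusted p of 0.05. Wdr43, a component of the small subunit processome in the nucleolus, had 15.9, 14.6, 14.99, 14.0 and 16.9 CPM in the ΔGm15551 mice and 17.6, 21.1, 16.7, 16.6 and 18.7 CPM in the wild type mice. Its wild type values were higher, with an overlap through ΔGm15551 replicate 7. The log2 fold change was -0.25 (SE 0.105, 95% interval -0.47 to -0.02, edgeR unadjusted p = 0.034, adjusted p = 0.9997). It missed an unadjusted p of 0.05 in 8 of 21 alternatives, among them those without ΔGm15551 replicate 2, 4 or 5 or wild type replicate 3 or 7. The groups did not overlap for 1 biogenesis gene, against 0.32% of all genes. This was Lsg1, a GTPase of late large subunit maturation, named here after its values were seen, with 14.0 to 15.96 CPM in ΔGm15551 and 16.2 to 18.03 CPM in wild type. Its log2 fold change of -0.17 had a 95% interval from -0.37 to 0.02 (edgeR unadjusted p = 0.079, adjusted p = 0.9997).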

How the data were processed

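The authors filtered reads with cutadapt, per the labels and methods, and quantified them with salmon against the GENCODE M22 transcriptome (or M22 with RNAcentral) on GRCm38. Tool versions are not given in the sources used here. The deposited values were estimated counts per gene, as whole numbers with 1 column per mouse, and no scaling. The library kit is described as paired-end, and strand use in counting is not given in the sources used here.

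The members, gene lists and tests were chosen with earlier results of these data known. Counts were fitted in R 4.3.3 with edgeR 4.0.16 on the whole table: filterByExpr (minimum count 10, total 15; 13732 genes), TMM scaling, robust glmQLFit and glmQLFTest with genotype as the only term, and Benjamini-Hochberg adjustment at 0.05. SEs were derived from F statistics. log2 CPM had a prior count of 2. Nothing in the labels ties mice to litters or days, so the tests treat the mice as independent. The study describes wild type litter mates for its diet experiment, and any effect of litter or day was not accounted for. The smallest chi-square per degree of freedom between 2 mice of a group was 11.3, so no pair of libraries agreed within sampling noise. Levels per length used the principal transcript of GENCODE M21 (99.5% of gene IDs matched). Sums of records were compared with exact permutation tests over mice, two-sided.

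Genes named were those under the thresholds or with the 3 smallest p, the 5 highest and 5 lowest per length, the 3 with the largest spread, all paralogue pairs, Rplp0, Rplp1, Rplp2, Rpsa, Rpl5, Rpl11, Rps6, Rps19 and Rps27a, Gm15551, Fau and Rack1, and list genes at an unadjusted p under 0.05. 1 further gene of this rule is not reported here. Others (Rpl4, Rpl36, Rpl38, Rpl27a, Rps23, Rpl35 and the best matching records) were named after their values were seen. Alternatives were DESeq2 1.42.0 size factors and Wald test, library totals, limma-voom (limma 3.58.1), no filter, at least 1 CPM in 5 mice, each mouse left out in turn, a block for the replicate number, leaving out wild type replicates 5, 6 and 7, a muscle score covariate, and scaling without the family. The sums of records, the length split, the share without paralogues and the 6 mice without pairing were chosen after seeing the data. So was a further length, that of the shortest transcript matching a curated RefSeq record, which left the same 5 genes highest. The length of all exons merged was not among these later choices.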

Additional observations from a re-analysis of the deposited data

Results flagged for a closer look

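A mouse stood far from the other 4 of its group, by the ratio of its gap to the range of the group, in 6 of 52 groups examined for the named genes and the family values. Chance gives about 1 in 20, a rate that does not apply to this set, since some of these genes were chosen for their spread. Rps27 had 10.97 CPM in wild type replicate 6, against at most 1.84 in the other wild type mice. Rpl3l had 11.7 CPM in wild type replicate 7, the mouse with the highest muscle share. Rpl22l1 had 16.0 CPM in ΔGm15551 replicate 1 and 18.4 CPM in wild type replicate 7. Rps6 had 183.0 CPM in wild type replicate 7 and Rpl5 had 9.85 CPM in ΔGm15551 replicate 2, the lowest mouse for this gene. Over all tested genes of the family, 11 of 170 groups of 5 held such a mouse.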

How the results depend on the processing

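With 10 mice in 2 groups of 5, the bounds on single genes rest on the spread between mice and, for Rpl39l and Rpl3l, on few counts. In all 21 alternatives 0 genes of the family passed an adjusted p of 0.05, while the median log2 fold change stayed within -0.23 to 0.08. The count at an unadjusted p under 0.05 was 2 with no filter, 2 without wild type replicates 5, 6 and 7 (Rpl10 and Rpl12, not Rpl39l), and 0 to 3 when each mouse was left out. It was 0 without ΔGm15551 replicate 2, 4 or 7 or wild type replicate 5, 2 without ΔGm15551 replicate 5 or wild type replicate 6, and 3 without wild type replicate 7. Without ΔGm15551 replicate 1 the 1 gene was Rpl22l1 in place of Rpl39l. The number of genes with an interval within 0.5 log2 units of 0 was 42 to 59 when each mouse was left out and 25 without wild type replicates 5, 6 and 7, where fewer mice widen the intervals. The difference in summed share (ΔGm15551 minus wild type) moved between -0.0739 and 0.0619 percentage points, less than the spread between mice. Signs turned for Rpl3l, whose log2 fold change ranged from -1.25 to 1.51 when each mouse was left out, with 1.51 without wild type replicate 7 and 2.40 without wild type replicates 5, 6 and 7 together, although it was -3.09 with the replicate block in the 6 mice with shared numbers (then under an unadjusted p of 0.05) and -3.75 in them without pairing, and for Rpl12, at -0.03 in the 6 mice with shared numbers with or without pairing (the exact values were -0.027 and -0.030). Rps27 moved from 1.45 to 2.97 without wild type replicate 6 and was 3.32 without wild type replicates 5, 6 and 7. The causes were not tested.

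The replicate numbers 2, 5 and 7 occur in both groups. Deviations of same-numbered mice correlated at -0.07, 0.05 and -0.39 over genes, so the numbers were not taken to pair the mice. With the replicate block in these 6 mice, 3 genes were under an unadjusted p of 0.05 and 5 had an interval within 0.5 log2 units. Without pairing in the same 6 mice these counts were 4 and 14.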
